A study of Mus musculus with 9 samples.

Results

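The secreted hormones of the beta cell are insulin, which mice make from the paired genes Ins1 and Ins2, amylin from Iapp, and urocortin 3 from Ucn3. These 4 genes were taken by symbol from 56748 genes in a table of mouse islet read counts. All 4 passed the count filter, which kept 17276 genes. Islets are the endocrine cell clusters of the pancreas, and those sequenced came from wild-type C57bl/6 mice. Total RNA of whole primary islets was sequenced in 3 groups of 3 libraries. Particle islets were kept for 48 hours with polydopamine-coated mesoporous silica nanoparticles and 3 cytokines, namely interleukin-6, TNF-alpha and IL-1beta. Inflamed islets received the cytokines without particles for the same time, and control islets were left untreated. No group received particles alone, so every particle value was measured under cytokines. The sources used here do not state the age of the mice or whether replicates came from separate animals. What the p-values measure is thus only how these samples spread, possibly for technical reasons.

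Insulin lowers blood glucose and is stored in granules together with amylin, which is released with it, slows gastric emptying and forms aggregates in islets of some species. Ins1 is a mouse and rat gene derived from a copied insulin transcript, and Ins2 is the ancestral insulin gene. Urocortin 3 marks mature beta cells in mice. It acts on the receptor CRHR2 of delta cells, whose somatostatin restrains insulin release.

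Ins1 lies on chromosome 19 from 52252735 to 52253914 on the plus strand (ENSMUSG00000035804). Ins2 is annotated on chromosome 7 from 142232393 to 142297118 on the minus strand (ENSMUSG00000000215). Iapp occupies chromosome 6 from 142244149 to 142249687 on the plus strand (ENSMUSG00000041681), and Ucn3 chromosome 13 from 3990688 to 3995349 on the minus strand (ENSMUSG00000044988). All are protein-coding genes, and these coordinates are those of the deposited table on GRCm39. In that table Iapp overlaps Slco1a5 on the opposite strand, which had at most 273 reads in a library, and the other 3 overlap no listed gene.

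Ins1 and Ins2 were the members most likely to share reads, so the start of each coding sequence is shown, taken from the GENCODE M21 transcripts and read 5′ to 3′. Capitals mark the 14 bases that differ between them.
Ins1: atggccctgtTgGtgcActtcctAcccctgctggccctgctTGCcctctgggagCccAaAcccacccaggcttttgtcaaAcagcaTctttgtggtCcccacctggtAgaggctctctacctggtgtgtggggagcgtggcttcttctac
Ins2: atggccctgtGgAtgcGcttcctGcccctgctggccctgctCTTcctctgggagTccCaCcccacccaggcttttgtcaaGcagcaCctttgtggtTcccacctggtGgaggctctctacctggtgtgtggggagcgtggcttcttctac
The coding sequences were 92.4% identical over 327 aligned bases. The longest identical run between the transcripts was 56 bases, and 0.691% of the 50-base windows of the Ins1 transcript occurred in the Ins2 transcript. Read length and the handling of reads that fit both genes are not given in the sources used here, so the split of insulin counts between Ins1 and Ins2 is uncertain.

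The promoters of the members are shown because all of their transcripts lay below control levels in each cytokine-exposed library, as described further on. RefSeq windows around the annotated start, on GRCm38.p6, matched 3 of the 4 genes: Ins1 at chr19:52264047-52264346 on the plus strand, Iapp at chr6:142298175-142298474 on the plus strand and Ucn3 at chr13:3945300-3945599 on the minus strand. Capitals mark CATCTG (an E box), TAATG (a homeodomain core) and TCAGC (part of the site of large Maf factors) on either strand.
Ins1: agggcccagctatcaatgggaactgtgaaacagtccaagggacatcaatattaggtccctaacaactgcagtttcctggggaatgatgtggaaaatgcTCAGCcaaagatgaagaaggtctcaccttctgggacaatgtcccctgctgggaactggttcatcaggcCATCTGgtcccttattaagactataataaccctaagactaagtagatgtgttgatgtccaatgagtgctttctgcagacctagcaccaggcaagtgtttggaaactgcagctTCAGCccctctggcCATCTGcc
Iapp: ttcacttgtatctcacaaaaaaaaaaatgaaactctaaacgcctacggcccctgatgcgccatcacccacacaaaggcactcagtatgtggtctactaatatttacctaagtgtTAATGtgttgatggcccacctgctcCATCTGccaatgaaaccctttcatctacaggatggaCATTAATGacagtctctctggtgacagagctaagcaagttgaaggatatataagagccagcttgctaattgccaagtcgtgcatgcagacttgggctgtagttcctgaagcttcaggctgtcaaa
Ucn3: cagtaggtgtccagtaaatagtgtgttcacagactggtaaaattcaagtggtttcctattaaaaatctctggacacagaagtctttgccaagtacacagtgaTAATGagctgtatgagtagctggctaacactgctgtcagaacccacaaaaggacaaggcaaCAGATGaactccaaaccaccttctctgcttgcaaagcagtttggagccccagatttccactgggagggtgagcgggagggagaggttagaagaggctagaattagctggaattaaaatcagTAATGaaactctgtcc
CATCTG occurred in all 3 windows, against 17.2% of 32851 promoter windows of the same length. TAATG occurred 3 times in Iapp, where 2 matches on opposite strands overlap, and 2 times in Ucn3, against 26.8% of windows. TCAGC occurred 2 times in Ins1, and 54.2% of windows hold it. The 3 windows held no match on either strand to TAATTA, which is in 5.29% of all windows. Likewise they held none to TGACG, which is in 20.8%. TATAAA, found in 13.6%, was also not matched. The last CATCTG and last TCAGC of Ins1 and the last TAATG of Ucn3 lay past the annotated start (window positions 293, 279 and 285). Bases outside the windows were not searched, so a motif absent here may still lie near the gene.

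Library totals were 17832949 to 55865759 counts, and the members were covered by 170 (Ucn3 in an inflamed library) to 10352783 counts (Ins2). Particle libraries varied most. Of the particle libraries, replicate 2 lay nearest to the controls for all 4 members, and member values without it are given where they differ in call or size. In bulk islets, fewer beta cells and less hormone RNA per beta cell cannot be told apart.

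Control islets held the hormone transcripts at high and even levels. Per length, Ins2 averaged 183673 ± 3513 FPKM (read fragments scaled by gene length and library size, SD, n = 3), Ins1 77267 ± 2400 FPKM, Iapp 26404 ± 691 FPKM and Ucn3 427 ± 63.8 FPKM. These levels did not overlap between any 2 members, and the order held in each control library. Ins2 was the most abundant gene by FPKM in all 9 libraries of the study. The order Ins2, Ins1, Iapp, Ucn3 also held in every cytokine-exposed library except particle replicate 1, where Iapp at 12047 FPKM exceeded Ins1 at 6464 FPKM. Ucn3 ranked between 47 and 56 among all genes by FPKM in controls. In inflamed islets it ranked between 5320 and 6437, and in particle replicates 1, 2 and 3 at 698, 150 and 6218.

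**Figure D1:**
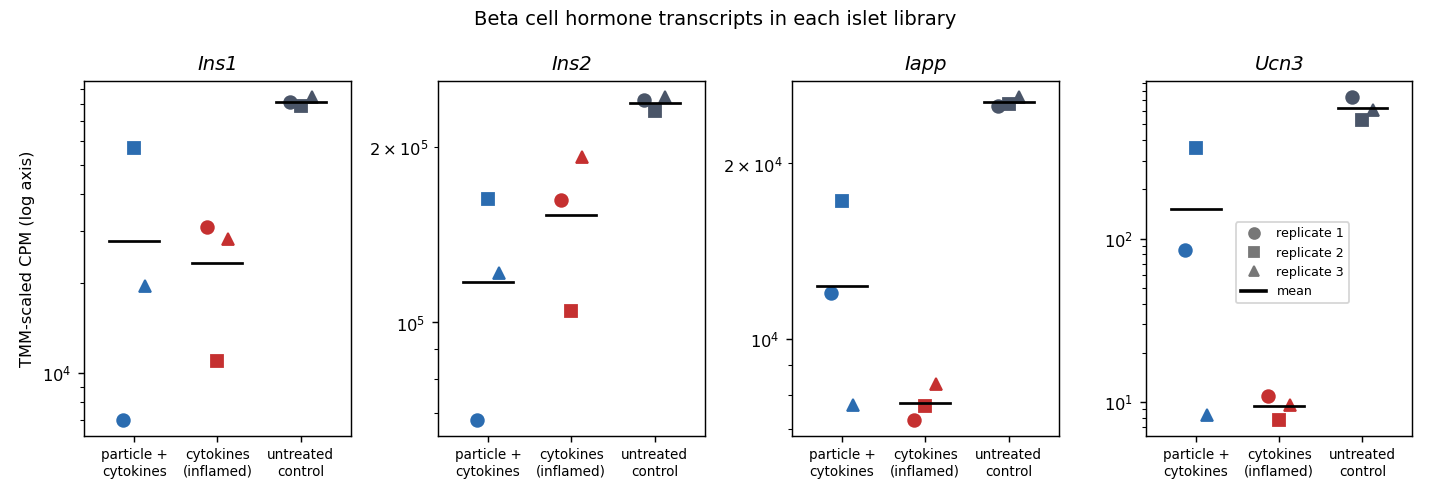
CPM (counts scaled to a common library size with TMM factors, log axis, a separate range in each panel) of Ins1, Ins2, Iapp and Ucn3 in each library, with a bar at the mean of each group of 3. All 6 cytokine-exposed libraries lie below all 3 controls for each gene, and Ucn3 in particle replicate 3 (8.28 CPM) lies among the inflamed libraries.

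Hormone transcripts in the inflamed group were set against those in the untreated group. How long the untreated islets were kept in culture is not known here. The part of culture time in any difference from control was thus not tested. Ucn3 fell most, Iapp and Ins1 fell to about the same degree, and Ins2 was not called. With edgeR's quasi-likelihood test, Benjamini-Hochberg adjustment and a threshold of 0.05, 3 of the 4 members were called lower and 0 higher. Over all genes tested, 19% were called lower and 39.6% in either direction, so a lowered gene was common in this comparison. For each of the 4 genes the 3 inflamed libraries lay below the 3 controls. The share of all genes tested that separated in this way was not counted.

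Ucn3 was at 10.9, 7.79 and 9.51 CPM (counts scaled by library totals with TMM factors) in inflamed islets, against 733, 528 and 616 CPM in control islets. The groups lay far apart and the inflamed libraries were close to each other. The log2 fold change was -6.06 (SE 1.16, adjusted p = 0.00419), a 66.6-fold lower level. Of 10876 tested genes that averaged 5 CPM or more, 13 had a lower log2 fold change. In all 21 alternative settings Ucn3 kept its call, with log2 fold changes of -6.20 to -5.89 and adjusted p up to 0.0231.

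Iapp was at 7259, 7647 and 8343 CPM in inflamed islets, against 25092, 25301 and 26003 CPM in control islets. Both groups were tight, with a coefficient of variation of 7.09% in inflamed and 1.87% in control islets. Its log2 fold change was -1.72 (SE 0.342, adjusted p = 0.00291), a 3.29-fold lower level, and the call was kept in all 21 alternative settings with adjusted p up to 0.0182.

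Ins1 was at 30952, 11001 and 28133 CPM in inflamed islets, against 81168, 78410 and 84234 CPM in control islets. Inflamed replicate 2 lay lowest, and the inflamed libraries spread more than for Iapp. For Ins1 the log2 fold change was -1.80 (SE 0.659, adjusted p = 0.0491), a 3.48-fold lower level just inside the threshold. Leaving out 1 library removed this call in 7 of 9 cases (each control, each inflamed library and particle replicate 3), with log2 fold changes of -2.06 to -1.47 and adjusted p up to 0.135. It was also lost with the replicate number as a block (adjusted p = 0.0794), and whether the numbers pair the samples is not known.

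Ins2 was at 162049, 104650 and 192282 CPM in inflamed islets, against 240814, 231274 and 243932 CPM in control islets. The libraries of the groups did not overlap, but inflamed replicate 3 came near to the controls. The log2 fold change was -0.64 (SE 0.421, adjusted p = 0.245), with a 95% interval of -1.57 to 0.28 that includes 0. Of the genes that averaged 5 CPM or more, 24.5% had a lower log2 fold change than Ins2, 7.42% a lower one than Iapp and 6.73% a lower one than Ins1.

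Ratios within a library need no scaling between libraries, and they separated the members from each other. Ins1 made up 16.04%, 9.51% and 12.8% of insulin counts in inflamed islets, against 25.2%, 25.3% and 25.7% in control islets. The control values were nearly constant, and every inflamed library lay below them. The mean difference was -12.6 percentage points, and the exact two-sided permutation p was 0.1, the smallest that 3 against 3 libraries allow (0.178 adjusted over 16 such tests). Iapp gave 3.76, 6.61 and 3.78 counts per 100 insulin counts in inflamed islets, against 7.79, 8.17 and 7.92 in control islets. The groups did not overlap, with a mean log2 difference of -0.81 (exact p = 0.1, adjusted 0.178). Ucn3 gave 56.4, 67.4 and 43.1 counts per 1000000 insulin counts in inflamed islets, against 2277, 1704 and 1877 in control islets. The mean log2 difference was -5.15 (exact p = 0.1, adjusted 0.178), so Ucn3 was lower relative to insulin in 3 of 3 inflamed libraries.

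**Figure D2:**
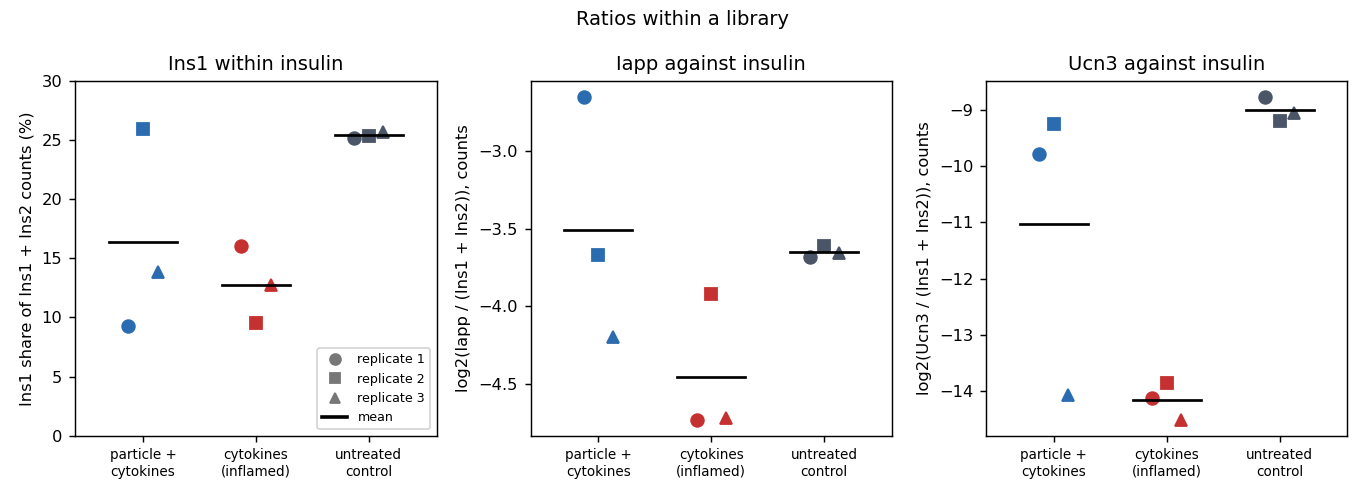
Left, the Ins1 share of insulin counts in percent. Middle and right, the log2 ratio of Iapp or Ucn3 counts to insulin counts. Points are libraries and bars are means of 3. Particle replicate 2 lies at control values in the left and middle panels (25.9% and a log2 ratio of -3.67), and particle replicate 3 lies at the inflamed value in the right panel (-14.06).

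What the particles changed under cytokines was measured in particle against inflamed islets. No member was called, and neither was any of the 17276 genes in edgeR (0% called), although 2603 genes had an unadjusted p under 0.05. DESeq2 called 487 genes higher and 296 lower, and limma-voom 1 and 14. For each member the libraries of the groups overlapped.

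Ucn3 was at 85.2, 360 and 8.28 CPM in particle islets, against 10.9, 7.79 and 9.51 CPM in inflamed islets. Particle replicates 1 and 2 lay above all inflamed libraries, and particle replicate 3 lay among them. The log2 fold change was 4.01 (SE 1.06, unadjusted p = 0.00463, adjusted p = 0.167), with a higher value in 2 of 3 particle libraries. Of the genes that averaged 5 CPM or more, 11 had a higher log2 fold change. Ucn3 was called higher by DESeq2 (adjusted p = 0.007, where 2.82% of genes were called higher) and without particle replicate 3 (log2 fold change 4.57, adjusted p = 0.00766, where 3.56% were). Particle replicate 3 had the lowest Ucn3 of its group, and the fit without it was singled out after its values were seen. Without particle replicate 2 the log2 fold change of Ucn3 was 2.32.

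Iapp was at 11957, 17273 and 7701 CPM in particle islets, against 7259, 7647 and 8343 CPM in inflamed islets. Again particle replicates 1 and 2 were above all inflamed libraries and particle replicate 3 was among them. For Iapp the difference on the log2 scale was 0.67 (SE 0.334, adjusted p = 0.384), with a 95% interval of -0.07 to 1.40. Without particle replicate 2 it was 0.35.

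Insulin did not follow this order. Ins1 was at 6995, 56970 and 19602 CPM in particle islets, against 30952, 11001 and 28133 CPM in inflamed islets. Particle replicate 2 was above and particle replicate 1 below all inflamed libraries. The log2 fold change was 0.25 (SE 0.639, adjusted p = 0.892), with a 95% interval of -1.15 to 1.66, and it was -0.82 without particle replicate 2 and -0.08 without inflamed replicate 2. Ins2 was at 68085, 162867 and 121607 CPM in particle islets, against 162049, 104650 and 192282 CPM in inflamed islets. Particle replicate 1 was lowest of all 9 libraries for both insulin genes. The log2 fold change of Ins2 was -0.38 (SE 0.420, adjusted p = 0.728), with a 95% interval of -1.30 to 0.54, and it was -0.10 without particle replicate 1.

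The ratios gave the same separation of the particle libraries. Ins1 made up 9.32%, 25.9% and 13.9% of insulin counts in particle islets, against 16.04%, 9.51% and 12.8% in inflamed islets (exact p = 0.7, adjusted 0.747). Iapp gave 15.9, 7.86 and 5.45 counts per 100 insulin counts in particle islets, against 3.76, 6.61 and 3.78 in inflamed islets (exact p = 0.2, adjusted 0.291). Particle replicate 1 thus had the highest Iapp to insulin ratio of all 9 libraries, above every control as well. Ucn3 gave 1134, 1636 and 58.6 counts per 1000000 insulin counts in particle islets, against 56.4, 67.4 and 43.1 in inflamed islets (exact p = 0.2, adjusted 0.291).

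To see how far the hormone transcripts of particle islets lay from the untreated state, particle islets were compared with control islets. All 4 members were lower in every particle library than in any control, though the share of all genes that separated so was not counted. None was called in the edgeR fit of all libraries, where 5.92% of genes were called lower and 17.3% in either direction. Other fits of the 9 libraries called some of them lower. DESeq2 and limma-voom called Iapp (adjusted p = 5.12e-04 and 0.0224) and Ins2 (adjusted p = 0.00422 and 0.0493), and limma on log2(FPKM + 1) called Iapp (adjusted p = 0.0417) and Ucn3 (adjusted p = 0.0407). These fits also called more genes lower in all: 1940, 1500 and 2017 in that order, against 1022 in the edgeR fit. This comparison shares its control libraries with that of inflamed islets. Ucn3 averaged 151 ± 185 CPM in particle islets and 626 ± 103 CPM in control islets (SD, n = 3 each), which gave -2.05 on the log2 scale (SE 0.967, adjusted p = 0.176). Iapp averaged 12310 ± 4796 CPM in particle and 25465 ± 477 CPM in control islets, a log2 difference of -1.05 (SE 0.336) just outside the threshold (adjusted p = 0.0533). Ins1 averaged 27856 ± 25990 CPM in particle and 81271 ± 2913 CPM in control islets (log2 fold change -1.54, adjusted p = 0.124). Ins2 averaged 117520 ± 47523 CPM in particle and 238673 ± 6595 CPM in control islets (log2 fold change -1.02, adjusted p = 0.117).

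These calls also depended on particle replicate 2. Without it edgeR called all 4 members lower, where 11.8% of genes were. The log2 fold changes were then -3.77 for Ucn3 (adjusted p = 0.00869), -1.41 for Iapp (adjusted p = 0.0126), -2.66 for Ins1 (adjusted p = 0.00766) and -1.38 for Ins2 (adjusted p = 0.0465). This library was singled out after its values were seen. Among the 9 edgeR fits that leave out 1 library, adjusted p reached 0.369 for Ucn3, 0.179 for Iapp, 0.348 for Ins1 and 0.288 for Ins2. The ratio of Ucn3 to insulin was below every control in 3 of 3 particle libraries (mean log2 difference -2.02, exact p = 0.1, adjusted 0.178), and the difference was -2.91 without particle replicate 2 and -0.51 without particle replicate 3. Together the members took 9.92%, 23.4% and 17.02% of all counts in particle islets, 19.5%, 13.9% and 22.05% in inflamed islets, and 31.1%, 31.6% and 30.8% in control islets. Against control, the share was lower in 6 of 6 cytokine-exposed libraries (exact two-sided permutation p = 0.0238, the smallest that 6 against 3 libraries allow, and 0.178 adjusted over 16 tests).

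**Figure D3:**
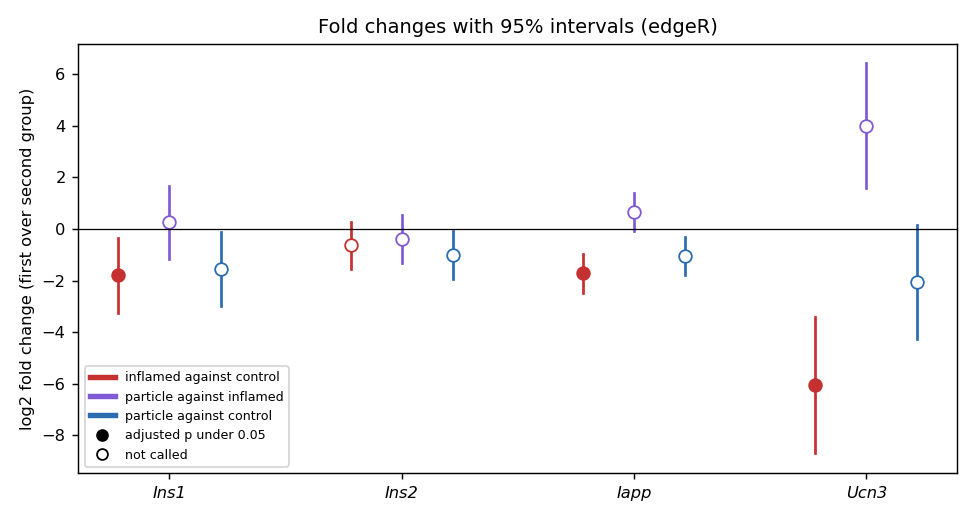
Log2 fold changes of the 4 members (points) with 95% intervals (lines) from edgeR in the 3 comparisons, first-named group over the second. Filled points are called at an adjusted p under 0.05: Ins1, Iapp and Ucn3 in inflamed against control islets (-1.80, -1.72 and -6.06).

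Across the 9 libraries the members varied in pairs. Log2 CPM of Iapp and Ucn3 had a Pearson r of 0.98 and that of Ins1 and Ins2 an r of 0.95. Between the pairs r was 0.75 for Ins1 and Iapp, 0.70 for Ins1 and Ucn3, 0.60 for Ins2 and Iapp and 0.51 for Ins2 and Ucn3. These points share groups and library scaling, so the values are given as a description. Single libraries followed the pairs in part. Particle replicate 1 was lowest of all libraries in Ins1 and Ins2, yet above all inflamed libraries in Iapp and Ucn3. Inflamed replicate 2 was lowest of its group in both insulin genes and in Ucn3, and held the middle value for Iapp, so there Ucn3 was placed with insulin.

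The genes most like each member were taken over all other protein-coding genes, as a description. Among 10392 such genes that averaged 5 CPM or more, the 3 most like Ucn3 over the 9 libraries were Kcnk16, a potassium channel of beta cells (r = 0.994), Copz2, a subunit of a vesicle coat (r = 0.994), and Rtl8c (r = 0.993). Kcnk16 averaged 87.7 CPM in particle, 9.79 CPM in inflamed and 389 CPM in control islets. For Iapp they were Mpp3, a membrane scaffold (r = 0.996), Ckap4, a protein of endoplasmic reticulum sheets (r = 0.995), and Ociad2 (r = 0.995). Ociad2 averaged 44.8 CPM in particle, 11.9 CPM in inflamed and 179 CPM in control islets. The nearest to Ins1 were Cadm4, a cell adhesion molecule (r = 0.974), H1f10, a linker histone (r = 0.974), and Mypop (r = 0.972). The nearest to Ins2 were Igfbp7, a secreted protein that binds insulin-like growth factors (r = 0.985), Tafa5 (r = 0.984) and Wtip (r = 0.972). Igfbp7 averaged 63.9 CPM in particle, 127 CPM in inflamed and 204 CPM in control islets, with the particle mean lowest as for Ins2.

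Transcripts of most of the listed transcription factors of beta cells fell in inflamed islets. Of 15 factors 14 were called lower and 0 higher relative to control islets, where 19% of all genes tested were lower and 20.7% higher. Glis3, chosen after its value was seen, was not called (log2 fold change 0.45, adjusted p = 0.184). The list had a median log2 fold change of -2.17, against 0.05 over all genes tested. Mafa, which binds the insulin promoter, fell to 54.4 ± 14.5 CPM in inflamed islets, against 2781 ± 228 CPM in control islets (adjusted p = 0.0064). Isl1, a homeodomain factor of endocrine cells, was at 22.4 ± 1.76 CPM in inflamed and 94.1 ± 16.6 CPM in control islets (adjusted p = 2.12e-04), and Neurod1, which binds E boxes, at 33.3 ± 4.02 CPM in inflamed and 127 ± 28.7 CPM in control islets (adjusted p = 2.61e-04). Their median was thus below the log2 change of Ins1, Ins2 and Iapp and above that of Ucn3. In particle against inflamed islets none of the 15 was called, with a median of 0.88, and in particle against control islets 11 were lower (median -1.40), where 5.92% of all genes were. Without particle replicate 2 there were 14, where 11.8% of all genes were (an alternative chosen after seeing the data, as are the counts without this library given for the other lists). Mafa stood at 74.5, 1263 and 50.7 CPM in particle islets, against 70.2, 51.3 and 41.6 CPM in inflamed islets. Replicate 2 stood far above the other particle libraries, as it did for Ucn3.

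Transcripts of proteins that process and store the hormones fell in part. Of 18 listed genes 11 were lower and 0 higher in inflamed against control islets (median log2 fold change -1.30), beside 19% of all genes called lower. Slc30a8, the zinc transporter that lets insulin crystallise in granules, was at 45.6 ± 3.75 CPM in inflamed and 441 ± 47.4 CPM in control islets (adjusted p = 2.50e-04). Pcsk1, a convertase that cuts proinsulin and proamylin, was at 55.9 ± 10.3 CPM in inflamed and 280 ± 88.7 CPM in control islets (adjusted p = 0.00126). Of these genes 9 were lower in particle against control islets, beside 5.92% of all genes, and 12 without particle replicate 2, beside 11.8%. In particle against inflamed islets none was called. Slc30a8 was at 76.4, 189 and 52.4 CPM in particle islets, each above the inflamed range of 41.2 to 48.1 CPM (adjusted p = 0.188). Of 17 genes of beta cell function with counts, 14 were lower and 0 higher in inflamed against control islets (median -2.15), beside 19% of all genes called lower. Particle against control islets had 8 of them lower, beside 5.92% of all genes, and 12 without particle replicate 2, beside 11.8%. Glp1r, the receptor of the incretin GLP-1, was at 37.3 ± 9.86 CPM in inflamed and 569 ± 116 CPM in control islets (adjusted p = 4.73e-04).

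Receptor genes were called at a share near that of all genes. Of 13 listed receptors and partners 11 could be tested, and in inflamed against control islets 4 were lower and 1 higher (median -0.61), beside 39.6% of all genes called in either direction. Crhr2, the receptor of urocortin 3, had 1, 0 and 0 counts in inflamed islets, against 25, 26 and 55 counts in control islets. Its level relative to total counts was 0.00797 of that in controls (exact 95% interval 2.00e-04 to 0.0454, counting error only, adjusted p = 0.0077 in edgeR). Crhr2 had 0, 22 and 8 counts in particle islets, so it was found in replicate 3, where Ucn3 was low, and not in replicate 1, where Ucn3 was at 85.2 CPM. Insr, the insulin receptor, was not called at 33.1 ± 4.64 CPM in inflamed against 24.1 ± 3.09 CPM in control islets (adjusted p = 0.09998). Insrr, an orphan relative of it, fell to 44.4 ± 10.8 CPM in inflamed islets, against 864 ± 90.7 CPM in control islets (adjusted p = 6.55e-04), and Irs2, an adaptor of insulin signalling, rose to 143 ± 47.8 CPM in inflamed islets, against 36.2 ± 1.86 CPM in control islets (adjusted p = 0.00432). Calcr, the core of the amylin receptor, had 0, 2 and 9 counts in particle, 1, 0 and 35 in inflamed and 1, 0 and 4 in control islets and was not tested. In particle against control islets Insrr alone was called (adjusted p = 0.0385), beside 17.3% of all genes called in either direction. Without particle replicate 2, 3 of 12 were lower and 1 higher, beside 11.8% and 13.4% of all genes. In particle against inflamed islets none was called.

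No tested gene of a peptide related to the members was called lower. Of 14 such genes 6 could be tested, and in inflamed against control islets 3 were higher and 0 lower (median 1.56), beside 20.7% of all genes called higher. Adm, which encodes adrenomedullin of the amylin family, rose to 9.48 ± 2.70 CPM in inflamed islets, against 0.926 ± 0.558 CPM in control islets (adjusted p = 5.22e-04), and Adm2 of the same family to 39.0 ± 10.1 CPM in inflamed islets, against 15.0 ± 6.39 CPM in control islets (adjusted p = 0.00577). Igf1, an insulin-like growth factor, rose to 7.64 ± 2.78 CPM in inflamed islets, against 2.30 ± 0.794 CPM in control islets (adjusted p = 0.00713). In particle against control islets Adm and Adm2 were called higher, beside 11.4% of all genes. Without particle replicate 2 the number higher was also 2, beside 13.4%. The other urocortins Ucn and Ucn2 did not pass the filter, and Crh had no count in any library.

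**Figure D4:**
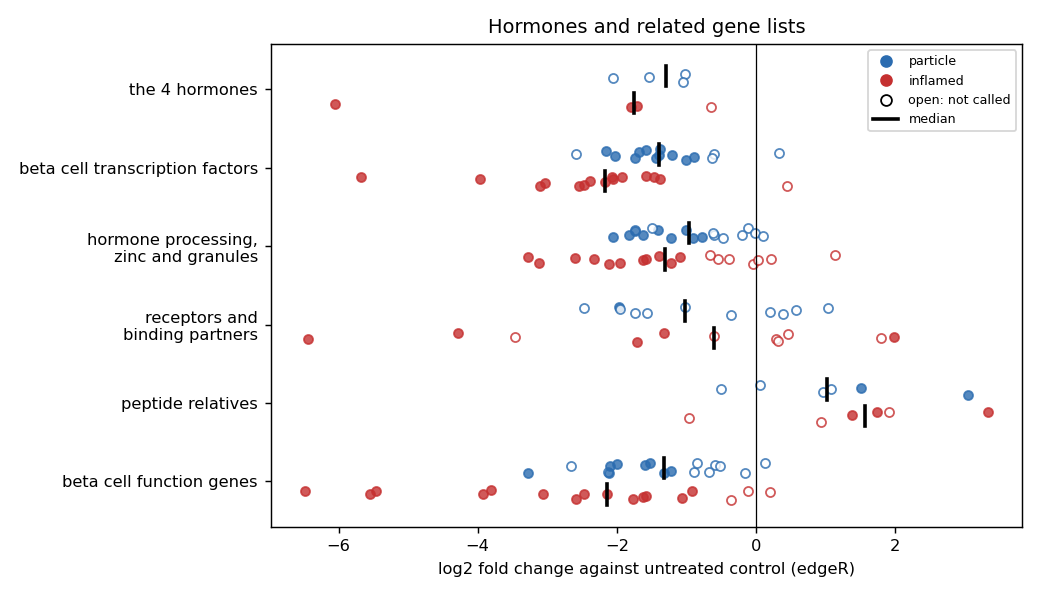
Log2 fold changes against control of the 4 hormones and of 5 lists of related genes, for particle (upper row of each pair) and inflamed islets (lower row). Each point is a gene, filled where called, and bars are medians. The median of the peptide relatives is above 0 (1.56 in inflamed islets), and those of the other lists are below 0. The leftmost receptor is Crhr2, whose fitted value rests on 1 count in inflamed islets.

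Markers of other islet cells moved in the same libraries. In inflamed against control islets 7 of 9 alpha, 3 of 4 delta and 5 of 8 endothelial markers tested were lower, and 8 of 9 macrophage markers were higher, beside 19% of all genes called lower and 20.7% higher. Particle against control islets had 3 of 9 alpha, 2 of 4 delta and 0 of 8 endothelial markers lower, beside 5.92% of all genes. Without particle replicate 2 these were 8 of 9, 4 of 5 and 6 of 8, beside 11.8%. Of the duct markers 3 of 7 were higher and 1 lower in inflamed against control islets, 2 of 8 stellate markers were lower, and 0 of 13 acinar and 0 of 3 PP and epsilon cell markers were called. In particle against inflamed islets no marker of these lists was called. Summed alpha markers reached 494, 8008 and 140 CPM in particle, 145 to 518 CPM in inflamed and 7556 to 27626 CPM in control islets. Gcg alone was at 395, 7543 and 65.1 CPM in particle and 7103 to 26464 CPM in control islets. Delta markers summed to 184, 1775 and 158 CPM in particle, 221 to 415 CPM in inflamed and 1360 to 2924 CPM in control islets. Sst alone was at 41.9, 1553 and 83.2 CPM in particle and 932 to 2381 CPM in control islets. Sst was not called in inflamed against control islets (edgeR adjusted p = 0.0864). PP and epsilon markers summed to 68.8, 1909 and 45.7 CPM in particle islets. In inflamed islets they reached 58.1 to 464 CPM and in control islets 1852 to 5792 CPM, although none was called. Macrophage markers summed to 378, 316 and 478 CPM in particle, 965 to 1037 CPM in inflamed and 303 to 370 CPM in control islets. Acinar markers summed to 6.45, 3541 and 236 CPM in particle, 29.4 to 2738 CPM in inflamed and 24.7 to 1545 CPM in control islets. Endothelial markers summed to 6.45, 29.5 and 6.67 CPM in particle, 4.93 to 9.06 CPM in inflamed and 28.9 to 74.2 CPM in control islets. Particle replicate 2, with the highest hormone transcripts of its group, was also highest of it in alpha, delta, PP and epsilon, acinar, endothelial and stellate markers. It was lowest of its group in macrophage markers and in the middle for duct markers. The part of these shifts in the hormone results was not tested.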

How the data were processed

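Read counts per gene (whole numbers, not normalized) and FPKM values were deposited by the authors for 9 libraries. HTSeq, DESeq2 and the build GRCm39 are named per the submitters' processing notes, and the aligner, strand setting and versions are not given in the sources used here. Each deposited FPKM value is the gene's count over its length and over a scaling constant of the library, which was 0.860 to 1.19 of the total count. Groups follow the titles of the samples, per the labels. The columns of untreated islets carry no treatment word and were matched as the set left over.

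The count test was that of edgeR 4.0.16 under R 4.3.3 (filterByExpr with a smallest count of 10, TMM factors, robust quasi-likelihood fit over all 9 libraries, Benjamini-Hochberg over 17276 genes, threshold 0.05). CPM use TMM-scaled totals. Standard errors and 95% intervals were derived from the F statistic. Ratios were tested with exact two-sided permutation tests (scipy 1.17.1), adjusted over 16 tests. Reads of Ins1 and Ins2 may be split wrongly where they match both.

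The members and the lists of related genes and markers (143 symbols, 1 not found) were chosen with earlier results of these data known. Besides the members, the 3 genes most correlated with each member are named. Also named are some of the 3 genes that had the smallest adjusted p in each list. Crhr2, Calcr, Insr, Slc30a8, Pcsk1, Mafa, Gcg and Sst are named as well. Crh, Ucn and Ucn2 are named for their lack of counts or of a test, chosen after their values were seen. Alternatives were other scaling factors, filters, tests (DESeq2 1.42.0 and limma 3.58.1) and fits, and leaving out each library. The fit was also run on simulated counts, with the same mean of a gene in all groups apart from planted changes. No result given here rests on that run. Libraries of a group differed by more than sampling noise (chi-square per degree of freedom 43.4 to 207), so each was kept as 1 replicate.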

Additional observations from a re-analysis of the deposited data

How the results depend on the processing

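In inflamed against control islets, Ucn3 and Iapp were called lower under all 21 alternatives. The Ins1 call was lost without a count filter (log2 fold change -1.85), without robust estimation (-1.80) and with the replicate number as a block (-1.73, adjusted p = 0.0794 in edgeR), and leaving out 1 library gave -2.06 to -1.47. The block changed no other call of a member. The deviations of same-numbered libraries from their group means had correlations of -0.184 to 0.206. Differently numbered libraries were not compared in this way, so these values cannot tell whether the numbers pair the samples.

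In particle against control islets, Iapp was called lower with DESeq2 (-1.11), DESeq2-style factors (-1.11), a filter of 1 CPM in 3 libraries (-1.05), no filter (-1.09), limma-voom (-1.13) and limma on log2(FPKM + 1) or log2(FPKM + 0.1) (-1.19 in both). Ins2 was called with DESeq2 (-1.09) and limma-voom (-1.12), and Ucn3 on log2(FPKM + 1) (-3.27). Leaving out 1 library gave -2.66 to -1.09 for Ins1, -1.38 to -0.75 for Ins2, -1.41 to -0.80 for Iapp and -3.77 to -1.49 for Ucn3.

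In particle against inflamed islets, Ucn3 was called with DESeq2 (3.99), and leaving out 1 library gave 2.32 to 4.57. Ins1 turned negative with limma-voom (-0.10) and on log2(FPKM + 1) and log2(FPKM + 0.1) (-0.11 in both), and leaving out 1 library gave -0.82 to 0.72, with -0.08 without inflamed replicate 2. The Ins1 share of insulin counts moved between -1.17 and 7.13 percentage points and was negative without particle replicate 2. The share of the members in all counts moved between -5.01 and 1.70 percentage points and was positive without particle replicate 1 and, at 0.0597, without inflamed replicate 3. In particle against control islets the log2 ratio of Iapp to insulin moved between -0.282 and 0.491 and was negative without particle replicate 1.

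Genes called higher in particle against inflamed islets numbered 0 in the edgeR fit, 487 with DESeq2, 120 without a filter, 5 on log2(FPKM + 0.1), and 1 each on log2(FPKM + 1), with limma-voom and with library totals in place of TMM factors. Those called lower numbered 0, and 296 with DESeq2, 101 without a filter, 9 on log2(FPKM + 0.1), 15 on log2(FPKM + 1) and 14 with limma-voom. Leaving out 1 library gave 0 to 636 higher and 0 to 306 lower. In particle against control islets 1961 genes were called higher, and 3193 with library totals. There 1022 were called lower, and 1940 with DESeq2, 597 with library totals, 1635 on log2(FPKM + 0.1) and 2017 on log2(FPKM + 1). Leaving out 1 library gave 887 to 2424 higher and 224 to 2121 lower. In inflamed against control islets it gave 2278 to 3786 higher, against 3568 with all libraries. The cause of these shifts was not tested. Ucn3 in inflamed islets rested on 170 to 512 counts a library, and the split between Ins1 and Ins2 on the unstated handling of shared reads.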
